A study of Mus musculus with 2 samples.

Results

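The Notch receptor genes Notch1, Notch2, Notch3 and Notch4, the ligand genes Dll1, Dll4, Jag1 and Jag2, and Rbpj, the DNA-binding partner of the cleaved receptor, were examined as 9 genes of 24062, taken by gene symbol. They were counted in 2 RNA libraries of sorted cells from the aorta of C57BL6 mouse embryos on embryonic day 11. CD31+ cells with intermediate KIT, which the submitters call haematopoietic progenitor cells, were sorted on the Gata2Venus transgene, a fluorescent reporter, into Gata2Venus-negative (1 library) and Gata2Venus-positive (1 library). The study concerns Gata2-independent progenitors, and the comparison addresses which transcripts distinguish cells without the reporter from cells with it. How many embryos or cells went into a library, and how closely the transgene follows Gata2 itself, is not given in the sources used here.

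In Notch signalling a membrane-bound ligand on one cell binds a receptor on its neighbour, which is then cut by ADAM proteases and gamma-secretase. The released intracellular part enters the nucleus and joins RBPJ and a Mastermind coactivator on target genes such as those of the Hes and Hey families. In the embryonic aorta the pathway is known for arterial identity and for the emergence of blood stem cells from endothelium, with Gata2 among its described targets.

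The 2 libraries differed in which receptors and ligands they held, while Rbpj was at nearly the same level in both. In the reporter-negative library Notch1, Notch4, Dll1 and Jag1 were lower, and Notch3 and Dll4 were higher, than in the reporter-positive library. Jag1 and Jag2 had 0 counts in the reporter-negative library. Levels are given as CPM, counts scaled to the size of the library, with exact Poisson 95% intervals. A gene is said to be past the size rule if its higher library had no fewer than 10 CPM and 50 counts and its ratio had an exact 95% interval entirely outside 2-fold. By this rule 4 of the 9 genes were lower and 2 were higher in the reporter-negative library, and the other 3 did not pass. The minimum level was reached by 8 of the 9, all but Jag2. Of the 12544 genes with at least 20 counts over both libraries, 12.3% were past the rule on the lower side and 12.6% on the higher side, or 14.9% and 15.2% of the 10381 genes that reached the minimum. Taken as reporter-negative over reporter-positive, the log2 ratio had a median of −1.77 over the 9 genes, with single genes from at most −7.12 to 1.84, against −0.01 over the 12544. With 1 library per group there is no replicate check, no p-value is given, and intervals cover counting error only. No molecular identifiers are named, so PCR copies of one molecule may be counted as several reads, which would make the intervals too short.

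**Figure D1:**
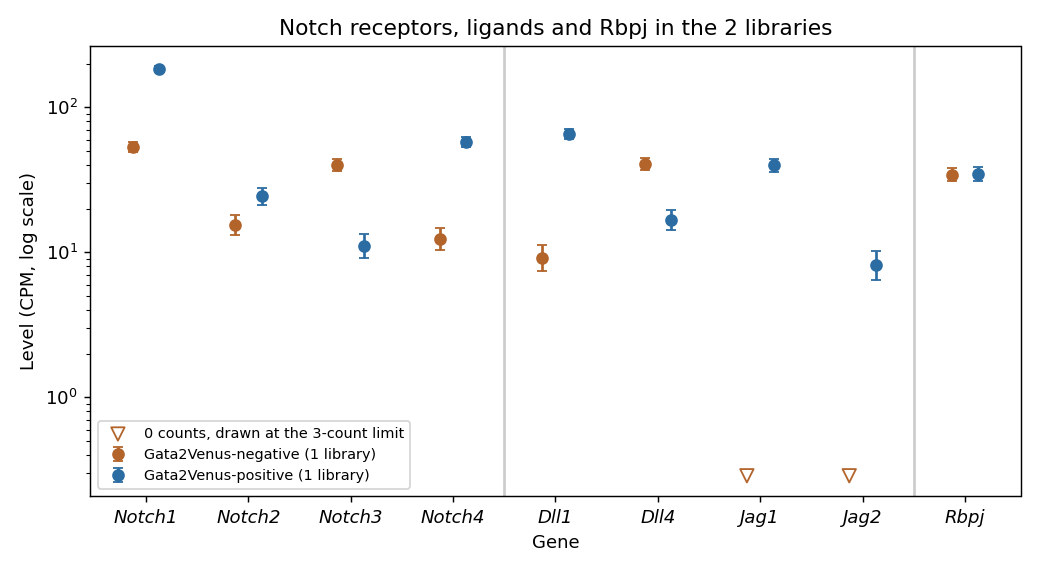
Level of each gene (CPM, log axis) in the Gata2Venus-negative (brown) and Gata2Venus-positive (blue) library, with exact Poisson 95% intervals, and open triangles at the limit that 3 counts give where a library had 0. Notch1, Notch4, Dll1 and Jag1 lie lower in the reporter-negative library, Notch3 and Dll4 higher, and Rbpj is at 34.3 and 34.7 CPM.

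Notch3 against Notch4 among the receptors, and Dll4 against Dll1 among the ligands, were pairs of genes whose order by counts was opposite in the libraries. Other pairs reversed too, such as Notch2 against Notch3 and Dll4 against Jag1. The 250 bases before the annotated start are shown for Notch3, Notch4, Dll1 and Dll4 only. They are RefSeq sequences of GRCm38.p6, read 5′ to 3′ on the gene's strand, with matches to any of 6 searched motifs in capitals.
Notch3 (chr17:32166891-32167140, minus strand): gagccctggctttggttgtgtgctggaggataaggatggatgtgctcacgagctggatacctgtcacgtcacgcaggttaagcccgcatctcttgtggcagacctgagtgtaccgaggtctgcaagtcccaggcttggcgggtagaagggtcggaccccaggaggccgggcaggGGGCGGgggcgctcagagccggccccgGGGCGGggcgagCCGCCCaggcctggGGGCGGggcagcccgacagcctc
Notch4 (chr17:34564045-34564294, plus strand): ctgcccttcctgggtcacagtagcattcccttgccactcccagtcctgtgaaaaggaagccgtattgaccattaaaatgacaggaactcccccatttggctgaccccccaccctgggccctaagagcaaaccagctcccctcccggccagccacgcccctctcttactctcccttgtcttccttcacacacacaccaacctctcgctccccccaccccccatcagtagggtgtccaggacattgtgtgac
Dll1 (chr17:15376933-15377182, minus strand): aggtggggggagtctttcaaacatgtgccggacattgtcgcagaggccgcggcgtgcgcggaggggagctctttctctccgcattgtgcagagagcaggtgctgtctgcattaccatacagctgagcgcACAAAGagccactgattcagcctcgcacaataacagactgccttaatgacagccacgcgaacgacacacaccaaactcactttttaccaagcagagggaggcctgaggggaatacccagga
Dll4 (chr2:119325534-119325783, plus strand): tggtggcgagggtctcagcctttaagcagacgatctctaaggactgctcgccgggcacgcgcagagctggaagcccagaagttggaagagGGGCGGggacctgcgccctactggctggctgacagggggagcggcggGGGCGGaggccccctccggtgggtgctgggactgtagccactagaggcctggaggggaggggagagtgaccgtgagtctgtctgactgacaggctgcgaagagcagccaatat
The last 27 bases shown for Notch4 lie in an exon of the GENCODE vM21 annotation. The motifs were sought on both strands. RBPJ was represented by TGGGAA, the GATA family by AGATAA, the SOX family by ACAAAG, the ETS family by CCGGAA, the GC box by GGGCGG and the TATA element by TATAAA. In the windows shown, no match overlapped one of another motif. The window of Notch3 held 4 GC boxes, that of Dll4 held 2 and those of Notch4 and Dll1 held 0. Among the windows of the 9 genes not shown, those of Notch1, Notch2 and Jag2 held 5 each and the rest held 0. The Notch1 window ends 12841 bases inside the gene as GENCODE vM21 annotates it. All 250 bases of the Jag2 window are exon in that annotation. Notch1 was lower in the reporter-negative library and Notch2 was not past the size rule. Whether GC boxes relate to the direction of the difference was not tested. Of 32851 promoter windows of this length, 32.7% held at least 1 GC box. Dll1 had 1 SOX match (16.5% of windows had one). None of the 4 windows held the RBPJ, GATA, ETS or TATA letters, which were in 21.6%, 9.99%, 12.03% and 12.4% of windows. The window of Notch4 had 4 CpG dinucleotides, against 17 for Notch3, 13 for Dll1 and 14 for Dll4. A match describes letters and is not evidence of binding.

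Among the receptors, Notch1 had the most counts in both libraries. Notch1 (chromosome 2, 26457903 to 26516663, mm10), the receptor required for blood stem cells to form in the embryo, had 557 counts in the reporter-negative and 1728 in the reporter-positive library. Its level was 53.5 CPM (interval 49.1 to 58.1) and 183 CPM (174 to 192), which is 3.42-fold lower in the reporter-negative library (log2 ratio −1.77, interval −1.91 to −1.63). The intervals of the 2 levels did not overlap. Notch4 (chromosome 17, 34564268 to 34588503), a receptor found mainly in endothelium, had 129 and 547 counts. It was at 12.4 CPM (10.3 to 14.7) in the reporter-negative and 57.8 CPM (53.1 to 62.9) in the reporter-positive library, 4.67-fold lower (log2 ratio −2.22, interval −2.51 to −1.94). Ratios at least as low as that of Notch1 were found for 14.3% of the 12544 genes, and as low as that of Notch4 for 12.2%.

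Notch3 was the receptor that went the other way. Notch3 (chromosome 17, 32120820 to 32166852) is known as the receptor of vascular smooth muscle and pericytes. It had 415 counts in the reporter-negative and 105 in the reporter-positive library, or 39.9 CPM (36.1 to 43.9) and 11.1 CPM (9.08 to 13.4). This is 3.59-fold higher in the reporter-negative library (log2 ratio 1.84, interval 1.53 to 2.17), and a ratio at least as high was found for 13.01% of the 12544 genes. Notch2 (chromosome 3, 98013527 to 98150361), a broadly expressed receptor, had 162 and 231 counts and was at 15.6 CPM (13.3 to 18.1) and 24.4 CPM (21.4 to 27.8). The interval of its log2 ratio (−0.65, interval −0.95 to −0.35) left out equal levels but lay within 2-fold, so it was not past the size rule.

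The make-up of the receptors within each library does not depend on how the libraries are scaled to each other. Notch1 held 44.1% of the 1263 receptor counts in the reporter-negative library (exact binomial interval 41.3 to 46.9) and 66.2% of 2611 in the reporter-positive library (64.3 to 68.0). Notch3 held 32.9% (30.3 to 35.5) and 4.02% (3.30 to 4.85). Notch4 held 10.2% (8.60 to 12.02) and 20.9% (19.4 to 22.6), and Notch2 12.8% (11.0 to 14.8) and 8.85% (7.79 to 10.002). The intervals of the 2 libraries did not overlap for any of the 4 receptors, but they cover counting error only. Shares within a library are tied to each other, so a large shift of 1 receptor moves the others. Notch2 held a larger share in the reporter-negative library although its level was lower there (15.6 and 24.4 CPM). There were 1.34 Notch1 counts for each Notch3 count in the reporter-negative library (interval 1.18 to 1.53) and 16.5 in the reporter-positive library (13.5 to 20.2). For Notch4 the corresponding numbers per Notch3 count were 0.311 (0.253 to 0.380) and 5.21 (4.22 to 6.48), so these receptors changed places. Notch1 and Notch4 kept closer proportions, with 4.32 Notch1 counts per Notch4 count (3.56 to 5.27) against 3.16 (2.87 to 3.48). Summed over the 4 genes, receptor counts were at 121 and 276 CPM, 2.28-fold lower in the reporter-negative library (log2 ratio −1.19, interval −1.28 to −1.09).

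Of the ligands, Dll1 and Jag1 were lower and Dll4 was higher in the reporter-negative library. Dll1 (chromosome 17, 15367354 to 15376872), a Delta-type ligand, had 95 counts in the reporter-negative and 617 in the reporter-positive library. Its levels of 9.12 CPM (7.38 to 11.2) and 65.2 CPM (60.2 to 70.6) put it 7.15-fold lower in the reporter-negative library (log2 ratio −2.84, interval −3.17 to −2.52), and a ratio at least as low was found for 10.7% of the 12544 genes. Dll4 (chromosome 2, 119325784 to 119335962), the Delta-type ligand of arterial and sprouting endothelium, had 425 and 158 counts. At 40.8 CPM (37.0 to 44.9) against 16.7 CPM (14.2 to 19.5) it was 2.44-fold higher in the reporter-negative library (log2 ratio 1.29, interval 1.02 to 1.56). The lower end of that interval is just beyond 2-fold, and 17.6% of the 12544 genes had a ratio at least as high.

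Both Jagged genes were seen in the reporter-positive library alone. Jag1 (chromosome 2, 137081456 to 137116644), a ligand needed for blood stem cells to form in the aorta, had 0 counts in the reporter-negative and 378 in the reporter-positive library, or 39.97 CPM (36.0 to 44.2). With 0 taken as 3 counts, or 0.288 CPM, in the reporter-negative library, Jag1 was at least 139-fold lower there. The log2 ratio was at most −7.12 from 3 counts, and the exact interval reached up to −6.81. Of the 5493 genes with at least 378 counts in the reporter-positive library, 14 (0.255%) had 0 in the reporter-negative library. Jag2 (chromosome 12, 112907819 to 112929776), the other Jagged ligand, had 0 and 77 counts, or 8.14 CPM (6.43 to 10.2) in the reporter-positive library. With 0 taken as 3 counts Jag2 was at least 28.3-fold lower in the reporter-negative library (log2 ratio at most −4.82, the exact interval reaching up to −4.49). It was under the 10 CPM that the size rule asks for. A count of 0 in the reporter-negative library was commoner at that depth, with 381 of 9651 genes (3.95%) that had at least 77 counts in the reporter-positive library.

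**Figure D2:**
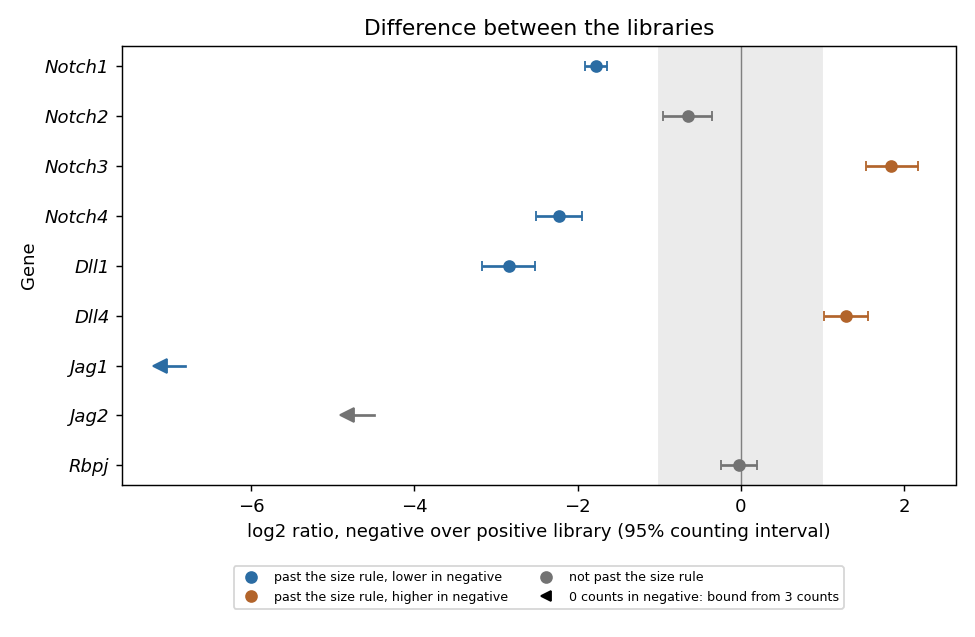
Log2 ratio of negative over positive library for each gene with its exact 95% interval. Triangles mark Jag1 and Jag2, whose ratios are bounds from 3 counts, and the grey band spans 2-fold in either direction. Notch3 and Dll4 lie to the right of the band, Notch1, Notch4, Dll1, Jag1 and Jag2 to the left, and Notch2 and Rbpj inside it.

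In the reporter-negative library Dll4 made up 81.7% of the 520 ligand counts (interval 78.1 to 85.0) and Dll1 the remaining 18.3% (15.0 to 21.9), and for each Jagged gene 0 of 520 counts allows a share of up to 0.577% taken as 3 counts, or up to 0.707% as the upper end of the exact binomial interval. In the reporter-positive library Dll1 made up 50.2% of 1230 counts (47.3 to 53.0), Jag1 30.7% (28.2 to 33.4), Dll4 12.8% (11.0 to 14.8) and Jag2 6.26% (4.97 to 7.76). All 4 ligands were thus detected in the reporter-positive library and the Delta-type pair in the reporter-negative one. There were 4.47 Dll4 counts per Dll1 count in the reporter-negative library (3.57 to 5.65) and 0.256 in the reporter-positive library (0.214 to 0.305), a 17.5-fold difference between the ratios. Summed ligand counts were at 49.9 and 130.1 CPM, 2.60-fold lower in the reporter-negative library (log2 ratio −1.38, interval −1.53 to −1.23).

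**Figure D3:**
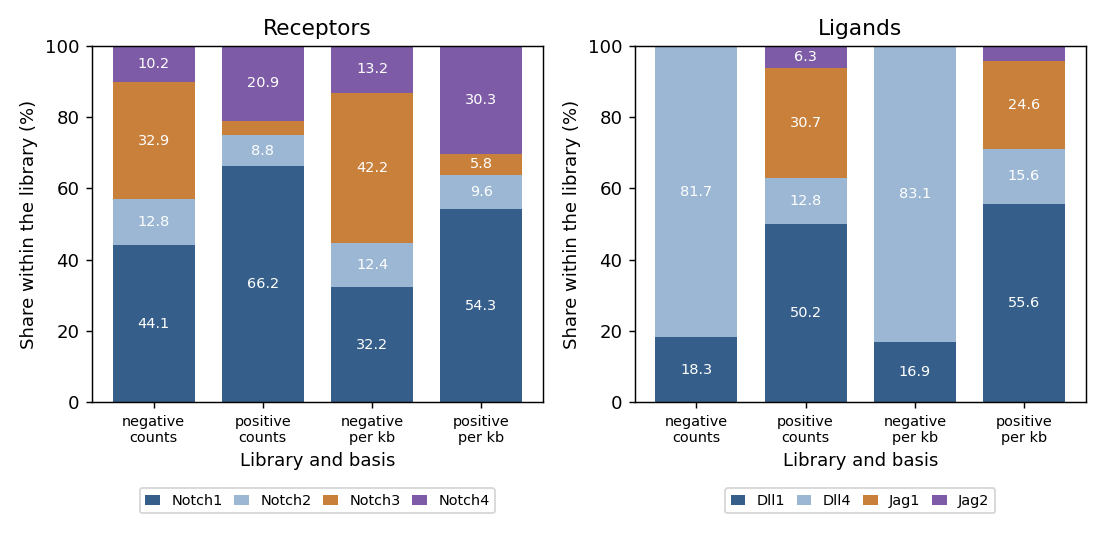
Share of the receptor counts (left) and ligand counts (right) held by each gene within each library, from counts and from counts per kilobase of annotated exon. Notch3 takes 32.9% of receptor counts in the reporter-negative and 4.02% in the reporter-positive library, and Dll4 81.7% and 12.8% of ligand counts.

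Rbpj (chromosome 5, 53466152 to 53657362) did not follow the receptors or ligands. It had 357 counts in the reporter-negative and 328 in the reporter-positive library, or 34.3 CPM (30.8 to 38.0) and 34.7 CPM (31.0 to 38.6), with intervals that overlapped almost wholly. The log2 ratio was −0.02 (interval −0.24 to 0.20), an interval that lay wholly within 2-fold. Per Notch1 count there were 0.641 Rbpj counts in the negative (0.560 to 0.733) and 0.190 in the reporter-positive library (0.168 to 0.214).

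Levels can be compared between genes only per length. In CPM per kilobase of annotated exon, the order in the reporter-negative library was Dll4 (10.6, interval 9.61 to 11.7), Notch3 (4.93, 4.47 to 5.43), Notch1 (3.76, 3.45 to 4.08), Rbpj (2.69), Dll1 (2.16), Notch4 (1.54) and Notch2 (1.44). The neighbours Rbpj and Dll1, Dll1 and Notch4, and Notch4 and Notch2 had overlapping intervals. In the reporter-positive library the order was Dll1 (15.5, 14.3 to 16.7), Notch1 (12.8, 12.2 to 13.5), Notch4 (7.17), Jag1 (6.86), Dll4 (4.34), Rbpj (2.72), Notch2 (2.27), Notch3 (1.37) and Jag2 (1.17). There Notch4 and Jag1, Rbpj and Notch2, and Notch3 and Jag2 had overlapping intervals. Some of these ranks depended on the length used. Per kilobase of the longest protein-coding transcript, which is 9.49 kb for Notch1 where its exons cover 14.2 kb, Notch1 came above Notch3 in the reporter-negative library (5.64 and 4.97) and above Dll1 in the reporter-positive library (19.3 and 18.2). On that length Rbpj was second in the reporter-negative library (6.25) and came above Dll4 in the reporter-positive library (6.32 and 4.46). Dll4 led the reporter-negative library under both lengths.

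The other genes of the pathway went both ways. Of 64 further pathway genes, 45 reached the minimum level. Of these, 7 were lower in the reporter-negative library (15.6%, against 14.9% of all genes that reached it) and 4 were higher (8.89%, against 15.2%). Their median log2 ratio was 0.16 over the 56 with at least 20 counts. Among genes of receptor processing 3 were past the rule, each on the lower side. Furin, the protease that cuts the receptor precursor, had 113 and 285 counts (log2 ratio −1.47), and Psen2, a catalytic subunit of gamma-secretase, had 13 and 430 (log2 ratio −5.19). These were 2 of 10 protease genes, and the other 8 were not past the rule. Rfng, a Fringe enzyme that adds sugar to the receptor, had 86 and 253 counts (log2 ratio −1.70) and was the only one of 5 glycosyltransferase genes past it. Among the 6 genes for ligand endocytosis, the ubiquitin ligase gene Mib2 was higher in the reporter-negative library with 630 and 153 counts (log2 ratio 1.90).

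Genes acting on the receptor inside the cell split as well. Of 9 genes for receptor turnover, Fbxw7, which marks the active receptor for destruction, had 0 and 133 counts. With 0 taken as 3 counts Fbxw7 was at least 48.8-fold lower in the reporter-negative library, and the exact log2 interval reached up to −5.29. Dtx3l had 2 and 129 counts (log2 ratio −6.15, interval −9.21 to −4.27) and its Deltex relative Dtx3 had 802 and 139 (log2 ratio 2.39). The Mastermind coactivators were opposed, with Maml1 at 10 and 281 counts (log2 ratio −4.95) and Maml3 at 352 and 44 (log2 ratio 2.86). Maml2, with 285 and 359 counts, had a log2 ratio of −0.47 and was not past the rule. Maml1 and Maml3 were the only coactivator genes past the rule among 7. Of the 13 corepressor genes 0 were past it, and the most abundant were Hdac2 (140.0 and 298 CPM) and Ctbp1 (93.6 and 128 CPM). Among the 4 genes of atypical ligands 0 were past it, with Dlk1 at 201 and 163 CPM and Dlk2 at 13 and 0 counts.

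Of 10 target genes, Heyl was higher and Nrarp lower in the reporter-negative library, and the other 8 did not pass the rule. Heyl, a Hey family repressor, had 276 counts in the reporter-negative and 0 in the reporter-positive library. With 0 taken as 3 counts Heyl was at least 83.6-fold higher, and the exact log2 interval reached down to 6.08. Nrarp, a feedback inhibitor of the receptor complex, was at 8.55 and 33.9 CPM, from 89 and 321 counts (log2 ratio −1.99, interval −2.34 to −1.65). The most abundant targets, named after their values were seen, were Hes1 with 544 and 352 counts (52.3 and 37.2 CPM), Hes6 with 582 and 237 and Hey1 with 459 and 339. All 3 had more counts in the reporter-negative library but did not pass the rule.

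**Figure D4:**
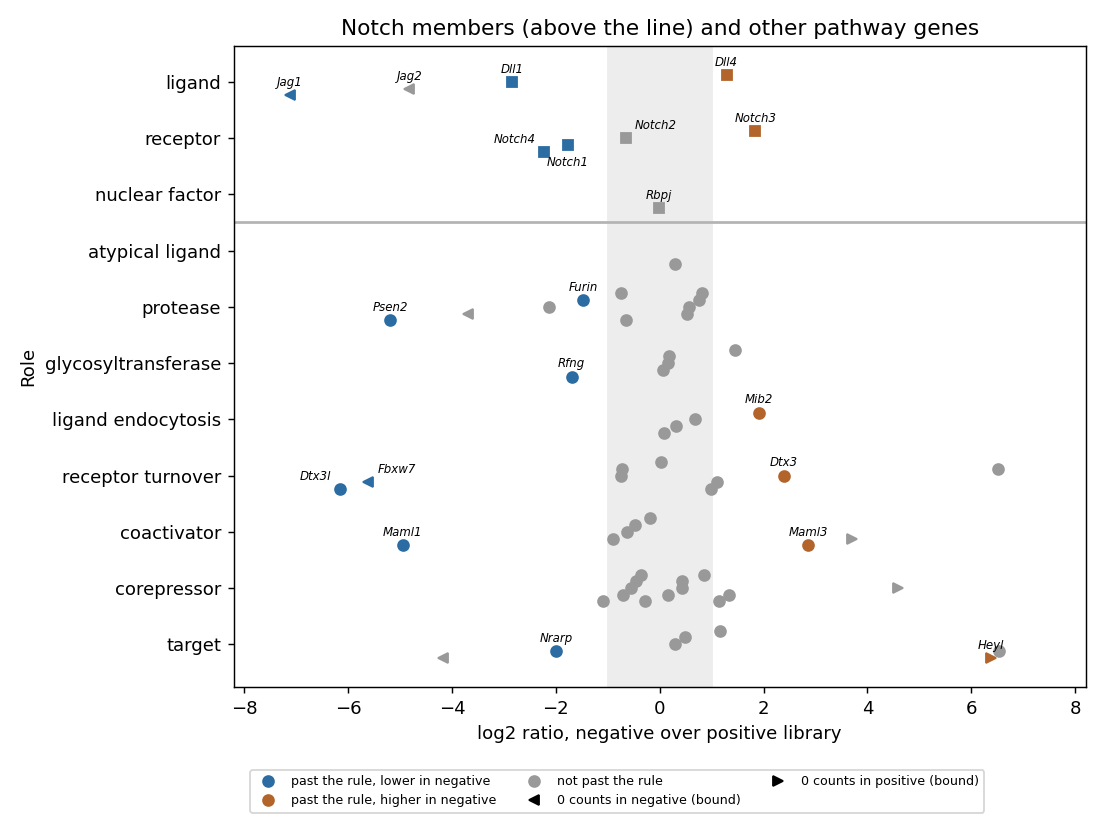
Log2 ratio of negative over positive library for the 9 Notch genes (squares, above the line) and the 56 other pathway genes with at least 20 counts (below), by role. Triangles are bounds for genes with 0 counts in one library, and the band spans 2-fold. Most roles hold genes on both sides, and the 13 corepressor genes have none past the rule.

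Markers of several cell types moved with these genes. Of all 10381 genes that reached the minimum level, 14.9% were lower and 15.2% higher. Of listed genes that reached it, 57.1% of endothelial, 42.9% of arterial, 33.3% of venous, 54.5% of haematopoietic and 90% of macrophage genes were lower. Of mesenchymal and smooth muscle genes 61.5% were higher, and of epithelial genes 33.3% were higher and 16.7% lower. Of the neural and neural crest genes 0 reached it. Gata2, the gene after which the reporter is named, had 141 and 664 counts, the direction of the sort, Kit was at 199 and 60.7 CPM, and Pecam1, which encodes CD31, was at 537 and 489 CPM. Of 21 endothelial genes, 12 were lower and 0 higher in the reporter-negative library and 0 had 0 counts there, with a summed level of 3673 and 7917 CPM. Examples are Vwf (13.1 and 73.1 CPM) and Ecscr (63.7 and 302 CPM). Of 10 arterial genes 3 were lower (Gja4, Sox17 and Unc5b) and 0 higher, summing to 847 and 1019.7 CPM. Hey1 and Hey2 of this list are also among the targets above, and Sox17 is also in the endothelial list. Of 6 venous genes 2 were lower (Emcn and Flt4), summing to 1564 and 2810 CPM. Emcn (253 and 893 CPM) is also among the endothelial genes counted as lower. Of 14 haematopoietic genes 6 were lower, summing to 683 and 1404 CPM. Spn and Gfi1 were at 0 in both libraries, Gfi1b and Myb at 0 in the reporter-negative library, and Runx1 had 21 and 303 counts, so several defining genes of the labelled cell type were absent or near 0 in the reporter-negative library. Of 10 macrophage genes 9 were lower, summing to 208 and 1066 CPM, with Cx3cr1 at 3 and 1150 counts and Fcgr3 at 25 and 1053. Of 16 mesenchymal and smooth muscle genes 8 were higher and 0 lower, summing to 7791 and 4807 CPM. Rgs5, a pericyte gene, had 489 and 2 counts and Myocd had 139 and 0. The other 8 genes of this list were not past the rule. Among these, Myh11 had 6 and 0 counts and Twist1 24 and 0, both under the minimum level. Col1a1 was at 1837 and 1453 CPM and Dcn at 187 and 313 CPM. Of 6 epithelial genes 2 were higher and 1 lower (Epcam 498 and 103 counts, Cldn6 79 and 253), summing to 428 and 317 CPM. Of 6 neural and neural crest genes 0 were past the rule, and Hand2 had 95 and 34 counts. In bulk RNA, fewer cells of a type and less RNA per cell cannot be told apart. The part of these markers in the Notch gene differences was not tested.

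The Notch genes were also set against the endothelial list. Its 21 genes had a median log2 ratio of −1.22. Relative to that median Notch1 was at −0.55 and Notch4 at −1.003, neither past the size rule, with 3.73% of the 12544 genes past it on the lower and 45.6% on the higher side, whereas Dll1 (−1.62) and Jag1 (at most −5.90) remained past it on the lower side. On the same scale Notch3 was at 3.06 and Dll4 at 2.51, Notch2 at 0.57 and Rbpj at 1.20. The size of this shift differed between single endothelial genes. Per 1000 counts of Cdh5, the endothelial cadherin gene, Notch1 had 514 counts in the reporter-negative and 648 in the reporter-positive library, and per 1000 counts of Pecam1 it had 99.6 and 373. Notch4 had 119 and 205 per 1000 Cdh5 counts, and 23.1 and 118 per 1000 Pecam1 counts. Dll4 was higher in the reporter-negative library against both, with 392 and 59.2 per 1000 Cdh5 counts and 75.99 and 34.1 per 1000 Pecam1 counts.

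**Figure D5:**
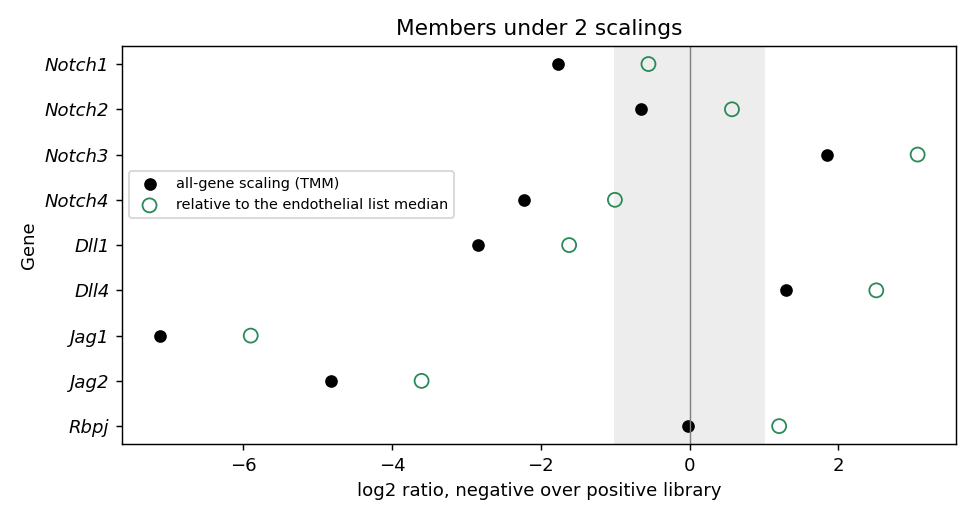
Log2 ratio of negative over positive library for each gene after scaling on all genes (filled) and relative to the median of 21 endothelial genes (open); the values of Jag1 and Jag2 are bounds. Every gene shifts by the same 1.22, which brings Notch1 to −0.55 and takes Notch3 to 3.06.

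The listed genes nearest in level to each Notch gene were found by the distance between their log2 CPM values over the 2 libraries, among 149 genes of the pathway and marker lists. For Notch1 these were Lmo2 (distance 0.40) and Sox18 (0.52), and for Notch4 they were Vwf (0.35) and Tyrobp (0.42). Dll1 had the same neighbours, Vwf (0.54) and Tyrobp (0.78). Notch3 lay nearest to the epithelial genes Epcam (0.26) and Cdh1 (0.37), Dll4 to Krt19 (0.54) and Mib2 (0.57), and Jag1 to Gfi1b (0.58) and Fbxw7 (1.503). With 2 libraries this describes 2 levels only.

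Exons of Dll1 share 867 bases (20.5% of their length) with A930024N18Rik on the opposite strand, and those of Notch1 share 7.504% with 0610009E02Rik, Dll4 5.56% with Gm14207, and Notch3 6.03% with Gm17276. Gm14207 has counts of its own in the files, 0 in both libraries, and the other 3 partners have no entry there under these symbols. Whether counting used strand is not given in the sources used here, and without it reads of those 3 partners and of Dll1, Notch1 and Notch3 cannot be told apart where their exons overlap. Exons of Notch1 also share 2.91% with Gm13568 on the opposite strand, and those of Notch2 share 5.02% with Gm42820 on the same strand. Neither of these partners has an entry in the files under its symbol. Strand would not separate reads of Notch2 and Gm42820. If libraries of one group are assumed to vary with a coefficient of variation of 0.4, Dll1 and Jag1 remained past the rule and Notch1, Notch3, Notch4 and Dll4 did not, with 5.53% of the 12544 genes past it on the lower and 5.29% on the higher side. With an interval beyond 4-fold the same 2 genes, Dll1 and Jag1, were past the rule, with 5.99% and 5.93% of the 12544 genes on the 2 sides. With a lower minimum of 1 CPM and 10 counts Jag2 joined the genes that were lower, with 18.3% and 17.6%. The 6 genes past the rule were the same under scaling by total counts, with 11.3% and 13.9%, and with a 2-fold ratio in place of the interval, with 15.4% and 15.8%.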

How the data were processed

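RNA of 2 libraries, 1 per group, was prepared with the mirVana kit and SMARTER, a cDNA amplification method, per the labels' protocols. TopHat, Cufflinks and HTSeq with build mm10 are named per the submitters' processing notes. No version, annotation or strand setting is given in the sources used here. The authors deposited 1 table per library of raw, whole-number read counts by gene symbol. The 5 rows for reads not assigned to a single gene were left out. They held 45.5% (negative) and 48.2% (positive) of the table's counts as alignments that are not unique, 5.93% and 7.996% as no feature, and 0.474% and 0.412% as ambiguous. Counts in genes totalled 10135400 and 9715131.

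Counts were scaled by edgeR 4.0.16 TMM factors (1.03 and 0.974; R 4.3.3) on totals over genes. Ratios have exact Clopper-Pearson 95% intervals given each gene's total (scipy 1.17.1). A count of 0 was set to 3 counts where a ratio is called a bound (0.288 CPM in the negative, 0.317 CPM in the reporter-positive library). Medians use genes with at least 20 counts over both libraries. Lengths and positions come from GENCODE vM21, to which 22758 genes (94.6%) matched by symbol, and promoters from RefSeq GRCm38.p6, with 11 entries for the 9 genes. The entry nearest to the GENCODE start was shown.

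Genes named were all 9 Notch genes, Gata2, Kit and Pecam1, every other pathway gene past the rule, and the 2 most abundant in a role with none. From each marker list the 2 genes past the rule with intervals farthest from equal expression were named, or else the 2 most abundant. One gene that this rule names is not reported here. The members and lists were chosen with earlier results of these data known. Steps were tested on simulated data. Alternatives were 4 other scalings (total counts, size factors of DESeq2 1.42.0, totals leaving out the 100 most abundant genes, endothelial median), 2 other filters, an interval beyond 4-fold, no interval, thinning, an assumed spread, 0.5 added counts, and shares per kilobase. Shares per kilobase of the longest coding transcript were added after seeing the data.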

Additional observations from a re-analysis of the deposited data

How the results depend on the processing

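Of the 11 alternatives, 5 change the filter, threshold or assumed spread and leave every log2 ratio as it is. Under the other 6 every Notch gene past the size rule kept its direction, and Notch1, Notch3, Notch4, Dll1 and Dll4 kept log2 ratios within their counting intervals except under the endothelial scaling. The 3 other scalings on all genes moved each log2 ratio by less than its interval. Rbpj changed sign under total counts (0.06) and under the endothelial scaling, and Notch2 under the latter. No paired analysis was possible because each group holds 1 library, and none could be left out.

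Scaling to the endothelial median moves all genes by 1.22 on the log2 scale. It left 2 Notch genes lower, 2 of the other pathway genes lower and 28 higher (median 1.38), and 468 and 5721 of all genes lower and higher. Of the 64 other pathway genes, 7 counted as higher under total counts and 8 with a 2-fold ratio and no interval. Of the 12544 genes, 13.9% and 15.8% were higher under these 2 settings. With a filter of 1 CPM and 10 counts, and with none, 12 of the 64 were lower and 10 higher. Of the 12544 genes, 18.3% were lower and 17.6% higher under either filter. Jag2 then joined the Notch genes that were lower. With an interval beyond 4-fold, 2 Notch genes were lower and 0 higher, 4 other pathway genes were lower and 3 higher, and 751 and 744 of all genes were lower and higher. With an assumed coefficient of variation of 0.4, 2 Notch genes were lower and 0 higher, 4 other pathway genes were lower and 2 higher, and 694 and 663 of all genes were lower and higher.

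Per kilobase of annotated exon, receptor shares in the reporter-negative library were 32.2% for Notch1, 42.2% for Notch3 and 13.2% for Notch4, and in the reporter-positive library 54.3%, 5.80% and 30.3%. Ligand shares in the reporter-positive library were 55.6% for Dll1, 15.6% for Dll4, 24.6% for Jag1 and 4.201% for Jag2. Per kilobase of the longest coding transcript, chosen after seeing the data, the receptor shares were 40.4% for Notch1, 10.6% for Notch2, 35.6% for Notch3 and 13.5% for Notch4 in the reporter-negative library, and 60.7%, 7.33%, 4.36% and 27.6% in the reporter-positive library. Dll1, Dll4 and Jag1 then held 58.0%, 14.2% and 22.7% of the ligand share in the reporter-positive library. The depth limits what can be said of Jag2, whose 77 counts give 8.14 CPM.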

Other observations

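Several pathway genes were seen almost in one library alone but lay under 10 CPM, and so outside the size rule. They were named after their values were seen. The target gene Hes5, a Hes family repressor, had 102 counts (9.80 CPM) in the reporter-negative and 1 in the reporter-positive library, and Dtx1, a Deltex ubiquitin ligase gene, had 101 (9.70 CPM) and 1. The corepressor gene Tle2 had 80 and 0 counts and the acetyltransferase gene Kat2b 43 and 0. In the other direction the arterial target gene Hey2 had 0 counts in the reporter-negative and 49 in the reporter-positive library, and Aph1c, a gamma-secretase subunit gene, had 0 and 35. Such genes were not rare at these depths. Of genes with at least as many counts in the reporter-negative library as Kat2b, 543 of 10528 (5.16%) had 0 in the reporter-positive library, and of those with at least as many as Tle2, 374 of 9730 (3.84%) did. Of genes with at least as many as Dtx1, 362 of 9290 (3.897%) had at most 1. In the other direction 683 of 10787 genes (6.33%) with at least as many counts in the reporter-positive library as Aph1c, and 561 of 10393 (5.398%) with at least as many as Hey2, had 0 in the reporter-negative library.

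Of the 9 Notch genes, Rbpj was the only one whose annotated promoter windows held the RBPJ letters TGGGAA, with 2 matches. Its 2 annotated windows overlap, and the single match of the second is one of the 2 in the first. They end 124194 and 124334 bases inside the gene as GENCODE vM21 annotates it, and 132 and all 250 of their bases are exon there. At least 1 match was found in 21.6% of all windows.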
